A study of Rattus norvegicus with 8 samples.

Results

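Peroxiredoxins 1 to 6 (Prdx1 to Prdx6), the superoxide dismutases Sod1 and Sod2, the copper chaperone Ccs and catalase (Cat) were followed in epithelial cells of the rat small intestine after different drinking waters. These 10 genes were taken by name, as every probe set that the array annotation gives to them, out of 14217 genes with a probe set of their own. Each of the 10 had 1 probe set. For 9 of them it was theirs alone, and that of Prdx1 was shared with Prdx1l1, a gene on another chromosome named for its likeness to it, so those signals belong to either gene. There were 8 Affymetrix rat arrays, 2 for each of 4 groups of Wistar rats, 4 months old by the labels and female by the study's methods: WR, water restriction for 12 h; DSW1200, deep-sea water at a hardness of 1200 for 3 days; SeW, selenium water (selenite in distilled water by the study's methods) for 3 days; and TW, tap water for 3 days, the control. The labels name no genetic change and no other agent in any group. The RNA came from cells loosened from the proximal small intestine and passed through nylon, so each array is a mixture of the cells that came off. The labels do not say whether the 2 arrays of a group came from separate animals or from pools, so the p-values measure only the spread between these arrays.

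Superoxide, a by-product of respiration and of NADPH oxidases, is turned into hydrogen peroxide and oxygen by the superoxide dismutases, Sod1 with copper and zinc in the cytosol and Sod2 with manganese in the mitochondrion. Hydrogen peroxide is then broken down by catalase in peroxisomes, by glutathione peroxidases, many of which carry selenocysteine, and by the peroxiredoxins, which use a reactive cysteine and are mostly reduced again by thioredoxin. The intestinal epithelium is exposed to oxidants from food, microbes and its own metabolism, and these enzymes are known there as part of its defence.

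Values are signal intensities after quantile normalization, a step that gives every array the same distribution of values. A gene was tested when its mean signal exceeded 6.69, the median of all probe sets, which 9258 genes did, the 9 members with a probe set of their own among them. The threshold was an adjusted p of 0.05 in limma with Benjamini-Hochberg adjustment over all 9258 genes. As deposited, the arrays differed in brightness, with median signals of 8 and 9 in WR, 6.1 and 7 in DSW1200, 10.6 and 11.1 in SeW, and 8.4 and 4.3 in TW. The 3'/5' signal ratio of the beta-actin control probe sets, a measure of RNA length, averaged 23.0 in WR, 29.9 in DSW1200, 12.3 in SeW and 22.3 in TW, lowest in SeW. That of the GAPDH control probe sets averaged 2.54 in WR, 3.43 in DSW1200, 1.81 in SeW and 2.87 in TW, also lowest in SeW. The labels name intestinal epithelium. All 8 of 8 measured enterocyte markers were bright enough to test, with Fabp1 between 6779 and 9066 on all 8 arrays. So were 8 of 8 fibroblast and smooth muscle markers, 6 of 6 goblet markers and 9 of 11 myeloid markers. The count alone therefore does not set enterocytes apart. The 8 enterocyte markers summed to 28044 to 29315 in WR, 30585 to 31200 in DSW1200 and 34287 to 36220 in SeW, against 31713 to 33507 in TW, so WR and DSW1200 lay wholly below TW and SeW wholly above it. The 9 T and intraepithelial lymphocyte markers with a probe set summed to 454 to 501 in WR, 437 to 455 in DSW1200 and 221 to 248 in SeW, against 317 to 323 in TW, with WR and DSW1200 above TW and SeW below it. The 11 myeloid markers with a probe set summed to 2822 to 3496 in WR, 2350 to 3375 in DSW1200, 2648 to 2717 in SeW and 2877 to 3136 in TW. All 9 of them that were bright enough to test had a lower mean in SeW than in TW. The part of RNA length and cell makeup in the results below was not tested.

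No member passed the threshold in any comparison. With limma, 0 of 9 members were called in WR against TW (0.0108% of all genes), 0 in DSW1200 against TW (0%), 0 in SeW against TW (1.91%), 0 in SeW against DSW1200 (2.72%), 0 in SeW against WR (1.23%) and 0 in DSW1200 against WR (0%), and 0 in the F test over the 4 groups (0.616%). At an unadjusted p under 0.05 there were 2 members in WR against TW (9.7% of all genes), 1 in DSW1200 against TW (7.92%), 2 in SeW against TW (19.6%), 1 in SeW against DSW1200 (20%), 1 in SeW against WR (16.5%), 0 in DSW1200 against WR (5.84%) and 3 in the F test (17.6%). Split by direction, the share of all genes called was 0.799% higher and 1.11% lower in SeW against TW, 1.25% higher and 1.47% lower in SeW against DSW1200, and 0.562% higher and 0.67% lower in SeW against WR. No member reached a 2-fold difference between group means in any comparison, and the member with the widest span was Sod1, at 0.69 log2 units between its highest and lowest group. The median log2 change over the 9 members was -0.16 in WR against TW (-0.01 over all tested genes), -0.33 in DSW1200 against TW (-0.02) and -0.07 in SeW against TW (-0.04). The 3 comparisons with TW share the same 2 TW arrays. A looser reading counts members whose 2 arrays of 1 group lay wholly above or wholly below the 2 of the other. In WR against TW 0 members lay above (18.4% of all tested genes) and 4 below (21.3%), in DSW1200 against TW 1 lay above (16.6%) and 4 below (19.2%), and in SeW against TW 1 lay above (22.1%) and 4 below (29.1%). In SeW against DSW1200 2 lay above (24.3%) and 2 below (29.5%), in SeW against WR 1 above (24.2%) and 3 below (30%), and in DSW1200 against WR 1 above (17.5%) and 3 below (18%). The members were also measured somewhat more tightly than most genes, with a median standard error of a log2 change of 0.19, against 0.26 over all tested genes.

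**Figure D1:**
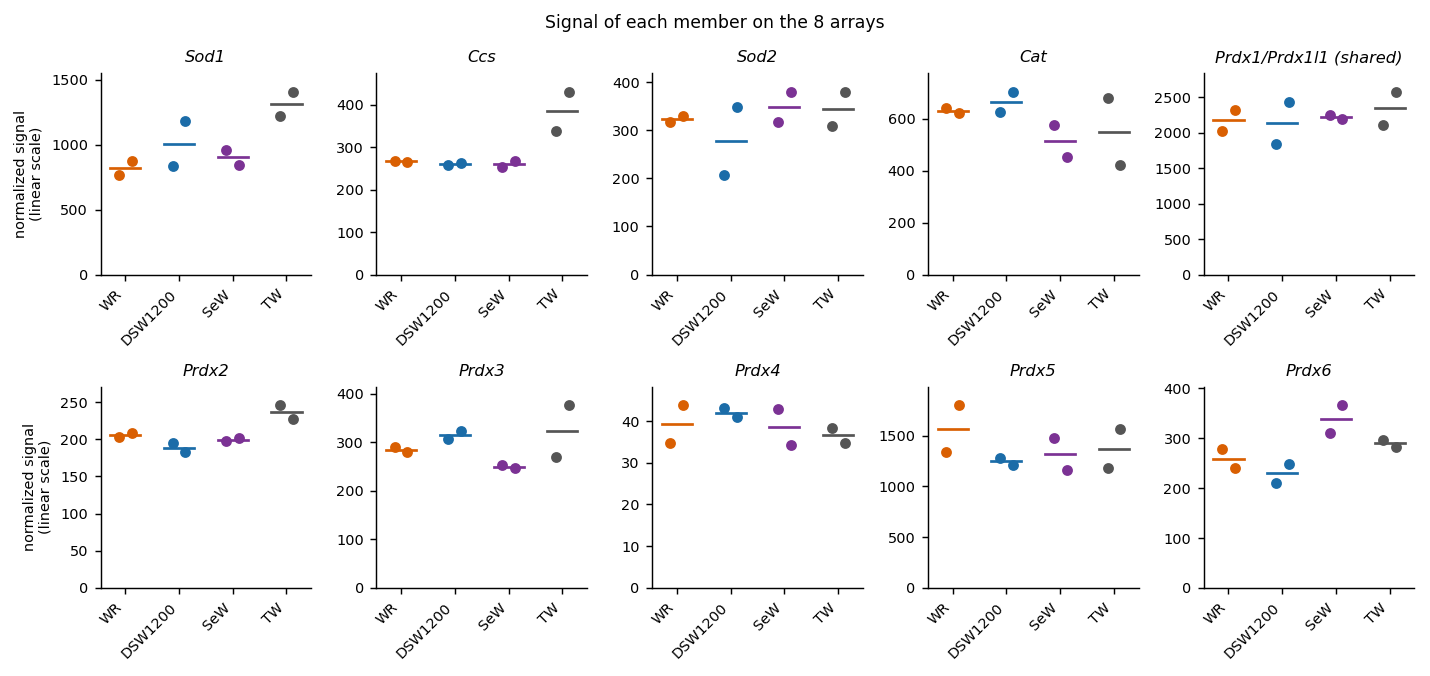
Normalized signal (linear scale, vertical axis from 0) of each of the 10 genes on the 8 arrays, with the groups WR, DSW1200, SeW and TW along the horizontal axis; each point is 1 array and each bar the mean of 2. Sod1, Ccs and Prdx2 are the members for which both TW points lie above the other 6, and Prdx6 is the one with both SeW points on top.

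Sod1, the cytosolic copper-zinc dismutase, was brightest on the tap water arrays. Its normalized signal was 767 and 872 in WR, 834 and 1182 in DSW1200, 964 and 844 in SeW, and 1226 and 1411 in TW. Both TW arrays lay above the other 6, and the other 3 groups overlapped one another. The log2 change was -0.69 in WR against TW (SE 0.19, limma adjusted p = 0.398), -0.41 in DSW1200 against TW (SE 0.19, limma adjusted p = 0.617) and -0.54 in SeW against TW (SE 0.19, limma adjusted p = 0.152). Over the 8 ways of leaving out 1 array, the change in DSW1200 against TW ran from -0.65 (without DSW1200 replicate 2) to -0.15 (without DSW1200 replicate 1), that in WR against TW from -0.78 to -0.58 and that in SeW against TW from -0.64 to -0.44. In bulk RNA such as this, fewer cells that express a gene and less of its RNA per cell cannot be told apart.

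Ccs, which hands copper to Sod1 and helps to close its disulfide, had nearly the same level in every group but TW. Its normalized signal was 268 and 266 in WR, 257 and 264 in DSW1200, 255 and 268 in SeW, and 338 and 432 in TW. The 6 arrays outside TW thus lay within 255 to 268, and both TW arrays were above them. The log2 change was -0.52 in WR against TW (SE 0.17, limma adjusted p = 0.453), -0.55 in DSW1200 against TW (SE 0.17, limma adjusted p = 0.617) and -0.55 in SeW against TW (SE 0.17, limma adjusted p = 0.115). The last of these rested on how far the TW arrays stood apart from each other. It was -0.73 with a limma adjusted p of 0.0430 without TW replicate 1, and over all 8 ways of leaving out 1 array it ran from -0.73 to -0.37. Among the groups other than TW the change of Ccs stayed close to 0, and the 95% interval for SeW against DSW1200 was -0.37 to 0.37.

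Prdx2, a cytosolic peroxiredoxin that is also very abundant in red blood cells, was also brightest in TW, with smaller steps. Its normalized signal was 203 and 209 in WR, 195 and 182 in DSW1200, 198 and 201 in SeW, and 246 and 227 in TW. Both TW arrays were again above the other 6, and both DSW1200 arrays were below the other 6. The log2 change was -0.20 in WR, -0.33 in DSW1200 and -0.24 in SeW, each against TW, with an SE of 0.15 and limma adjusted p-values of 0.688, 0.617 and 0.419 in that order. The red cell marker Hbb, the beta chain of haemoglobin, had signals of 129 and 51.8 in WR, 68.1 and 75.8 in DSW1200, 32.6 and 63.8 in SeW, and 48.2 and 56.6 in TW. Of 8 listed red cell markers 5 had a probe set of their own and 2 were bright enough to test. The 5 summed to 76.9 to 164 in WR and 49.7 to 89.9 in SeW, against 70.6 to 83.4 in TW. Both DSW1200 sums, the lower of them 90.9, lay above both TW sums, while the WR and SeW ranges overlapped that of TW.

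Enterocyte markers summed lower, and lymphocyte markers higher, in WR and DSW1200 than in TW, beside the lower Sod1, Ccs and Prdx2 signals. In SeW, where these signals were also below TW, enterocyte markers summed higher and lymphocyte markers lower than in TW. The part of cell makeup was not tested. For 3 of 9 members both TW arrays lay above the other 6, a pattern found in 5.92% of all tested genes, and for 0 of 9 both TW arrays lay below the other 6 (4.19%). Both DSW1200 arrays lay above the other 6 for 0 members (4.27%) and below them for 1, Prdx2 (4.53%), and both WR arrays above for 0 (3.53%) and below for 0 (3.79%). Median centring shifts each array to a common median and leaves its spread as it is. After it both TW arrays lay above the other 6 for 0 of 9 members and 2.47% of all genes. With the values as deposited this was so for 0 of 9 and 0.0972%. The DSW1200 pattern of Prdx2 was also absent in both settings. Across the 8 arrays the log2 signal of Sod1 went with that of Ccs (Pearson r = 0.79) and that of Prdx2 with Ccs (r = 0.75), as a description of 8 points that share 4 groups and 1 normalization. The tested genes most like Ccs over the 8 arrays were Hdlbp (r = 0.963), Pex6 (r = 0.963) and Psmb5 (r = 0.940). Those most like Sod1 were Mrpl22 (r = 0.978), Zfyve27 (r = 0.966) and Ndufs7 (r = 0.957).

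Sod1, Ccs and Prdx2 had TW on top, below which the order of the group means of Sod1 was not that of Ccs and Prdx2. The 250 bases before a start site of each are therefore shown, as RefSeq gives them for the assembly GRCr8. Matches to 4 short promoter motifs are in capitals. The annotated genes begin further upstream, at 42942742 for Sod1, 211564354 for Ccs and 40091083 for Prdx2. The end of each of these windows thus lies inside its gene. The TATA box core was searched for as TATAAA. A GC box, the site of Sp factors, was any GGGCGG, which reads CCGCCC from the other strand. A CCAAT box was that pentamer or ATTGG, its form on the other strand. For the core of the antioxidant response element, which Nrf2 binds, TGACNNNGC was searched for on both strands too. Sod1 lies on the plus strand at chr11:42942573-42942822, Ccs on the minus strand at chr1:211564261-211564510 and Prdx2 on the minus strand at chr19:40090983-40091232, each written 5′ to 3′ along its gene.
Sod1: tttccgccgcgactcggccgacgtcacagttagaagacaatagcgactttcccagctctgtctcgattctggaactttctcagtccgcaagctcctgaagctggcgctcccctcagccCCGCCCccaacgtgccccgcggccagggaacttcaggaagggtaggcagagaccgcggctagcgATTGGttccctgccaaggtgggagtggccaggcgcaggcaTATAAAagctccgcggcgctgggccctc
Ccs: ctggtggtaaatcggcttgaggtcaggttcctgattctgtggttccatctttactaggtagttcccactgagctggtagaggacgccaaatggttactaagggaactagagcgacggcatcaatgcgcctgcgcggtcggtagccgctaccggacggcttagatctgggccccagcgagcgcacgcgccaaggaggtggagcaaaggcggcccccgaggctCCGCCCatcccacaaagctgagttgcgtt
Prdx2: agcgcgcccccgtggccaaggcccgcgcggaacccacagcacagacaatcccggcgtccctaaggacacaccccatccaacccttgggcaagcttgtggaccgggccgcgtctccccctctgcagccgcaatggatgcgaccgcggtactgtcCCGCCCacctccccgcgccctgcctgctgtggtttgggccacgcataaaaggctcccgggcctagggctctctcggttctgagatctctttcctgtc

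The Sod1 window holds a GC box, a CCAAT box and a TATA box core, the last 23 bases before the start. Ccs and Prdx2 share only the GC box, 24 bases before the start in Ccs and 92 in Prdx2, and none of the 3 windows holds the antioxidant response core. Of the 9 members with an entry, the GC box was present in 8 (30.5% of 33469 windows of the same length), the CCAAT box in 3 (34%), the TATA box core in 2 (12.9%) and the antioxidant response core in 2 (10.1%). The antioxidant response core occurred in Prdx1 and Sod2. The Prdx1 window, on the plus strand at chr5:135383656-135383905, is shown for this core and for 2 GC boxes that overlap by 1 base, ahead of a TATA box core.
Prdx1: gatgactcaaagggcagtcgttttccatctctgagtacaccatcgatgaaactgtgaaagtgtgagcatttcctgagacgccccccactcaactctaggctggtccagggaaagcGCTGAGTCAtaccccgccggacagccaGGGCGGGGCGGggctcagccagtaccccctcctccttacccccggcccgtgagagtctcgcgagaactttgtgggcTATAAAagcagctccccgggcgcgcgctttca

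A match is a run of letters and not a tested site. Prdx6 is named only. The 300-base windows of Prdx1 and Prdx1l1, which run 50 bases past the start, are identical over their last 51 bases.

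**Figure D2:**
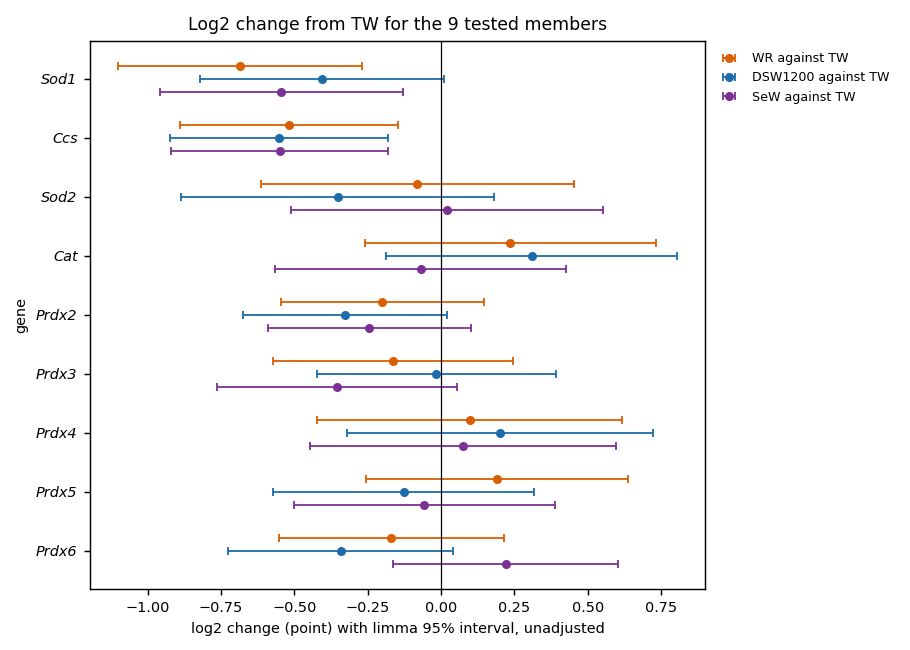
Log2 change (horizontal axis) of the 9 tested members in WR, DSW1200 and SeW, each against TW, with the limma 95% interval, not adjusted for the number of genes. The intervals of Ccs lie below 0 in all 3 comparisons, yet its adjusted p-values of 0.453, 0.617 and 0.115 do not pass 0.05.

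Sod2, the mitochondrial manganese dismutase, did not share the order of Sod1. Its normalized signal was 318 and 330 in WR, 207 and 348 in DSW1200, 318 and 380 in SeW, and 308 and 381 in TW. All 4 groups overlapped, and the first DSW1200 array was the lowest of the 8. Its log2 change was -0.08 in WR, -0.35 in DSW1200 and 0.02 in SeW, each against TW, and the 95% interval for SeW against TW was -0.51 to 0.55. The within-array ratio of Sod1 to Sod2, which does not depend on how bright an array was and is read here only between arrays, was 2.30 and 2.68 in WR, 4.22 and 3.49 in DSW1200, 3.00 and 2.24 in SeW, and 4.03 and 3.87 in TW as deposited. The WR and SeW ratios were all below both TW ratios, and the DSW1200 ratios lay on either side of them. With 2 arrays against 2 the smallest p that an exact two-sided permutation test can give is 0.333, so no such test was made.

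Cat, the peroxisomal enzyme that splits hydrogen peroxide without a reducing partner, differed more between the 2 TW arrays, on the log2 scale, than any other member. The arrays gave Cat 642 and 622 in WR, 625 and 705 in DSW1200, 577 and 453 in SeW, and 679 and 423 in TW. Both SeW arrays were below all WR and DSW1200 arrays, and the TW arrays spanned nearly the whole range. The log2 change was -0.38 in SeW against DSW1200 (95% interval -0.87 to 0.12, limma adjusted p = 0.380) and -0.07 in SeW against TW (95% interval -0.56 to 0.43).

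Prdx6, which differs from the other peroxiredoxins in being reduced through glutathione and a glutathione transferase and in having phospholipase activity as well, had its 2 highest arrays in SeW. Prdx6 had 311 and 367 in SeW, against 211 and 248 in DSW1200, 278 and 240 in WR, and 297 and 283 in TW. This was so for no other member, and for 10.6% of all tested genes. After median centring it was so for no member and for 14.1% of all genes. As deposited it was so for 8 members, Prdx6 among them, and for 61.8% of all genes. The log2 change was 0.56 in SeW against DSW1200 (SE 0.17, 95% interval 0.18 to 0.94, limma adjusted p = 0.112), 0.39 in SeW against WR (limma adjusted p = 0.293) and 0.22 in SeW against TW (limma adjusted p = 0.519). The genes most like Prdx6 over the 8 arrays were Tm9sf4 (r = 0.976), Ik (r = 0.976) and Idh3b (r = 0.969).

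Prdx3, the peroxiredoxin of the mitochondrion, stood at the other end of the SeW arrays. It had 253 and 246 in SeW, 307 and 324 in DSW1200, 290 and 280 in WR, and 270 and 377 in TW. Both SeW arrays were below the other 6, as for 13% of all tested genes. After median centring this was so for no member and for 5.69% of all genes. As deposited both SeW arrays of Prdx3 lay above the other 6, as for 61.8% of all genes. The log2 change was -0.34 in SeW against DSW1200 (limma adjusted p = 0.341) and -0.35 in SeW against TW (limma adjusted p = 0.318). The change against TW ran from -0.60 (without TW replicate 1) to -0.11 (without TW replicate 2) over the 8 leave-one-out fits.

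The remaining peroxiredoxins had no group whose arrays both lay above or below the other 6. The probe set shared by Prdx1, a cytosolic peroxiredoxin known to be induced by oxidants, and Prdx1l1 had 2027 and 2322 in WR, 1834 and 2428 in DSW1200, 2247 and 2192 in SeW, and 2109 and 2580 in TW. All 4 groups overlapped, and in a fit with every probe set as a row of its own and those with several symbols kept, 12266 tested in all, the log2 changes from TW lay between -0.14 and -0.07 with limma adjusted p-values of 0.805 to 0.863. Prdx4, the peroxiredoxin of the endoplasmic reticulum and the secretory path, had 34.8 and 43.9 in WR, 43.1 and 40.9 in DSW1200, 43.0 and 34.4 in SeW, and 38.3 and 34.8 in TW. Both DSW1200 arrays of Prdx4 were above both TW arrays, with a log2 change of 0.20 (95% interval -0.32 to 0.72, limma adjusted p = 0.793). Prdx5, found in mitochondria, peroxisomes and the cytosol, had 1337 and 1805 in WR, 1286 and 1207 in DSW1200, 1476 and 1159 in SeW, and 1180 and 1569 in TW. The Prdx5 groups overlapped except that both DSW1200 arrays were below both WR arrays (log2 change -0.32, limma adjusted p = 0.917).

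For many changes the direction rested on how the arrays were scaled. In DSW1200 against TW only Prdx3 changed sign between the scalings. Sod1 and Ccs were lower in WR than in TW under each, by quantile normalization, as deposited and after median centring. The Sod1 changes were -0.69, -0.43 and -0.93 in that order, and those of Ccs -0.52, -0.20 and -0.69. As deposited, the median log2 change over all tested genes was 0.92 in SeW against TW and 0.84 in SeW against DSW1200, since the SeW arrays were brighter throughout. On those values 8 of 9 members, and 61.8% of all tested genes, had both SeW arrays above the other 6, and 7 of 9 members passed the threshold in SeW against TW, as did 47.5% of all genes. Relative to the median of all tested genes, the change of Sod1 in SeW against TW was -0.50 after quantile normalization and -0.54 as deposited, and the change of Ccs was -0.51 and -0.50. That of Prdx6 was 0.26 and 0.27. In WR against TW, Sod1 lay -0.67 and -0.81 from the all-gene median in the same order of scalings, and Ccs -0.51 and -0.58. Median centring moves all genes of an array alike, so relative to the median it gives the deposited values again and adds nothing. The deposited Ccs signals themselves were 263 and 245 in WR, 178 and 233 in DSW1200, 378 and 399 in SeW, and 290.5 and 291.4 in TW, so that the SeW arrays were then the brightest.

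**Figure D3:**
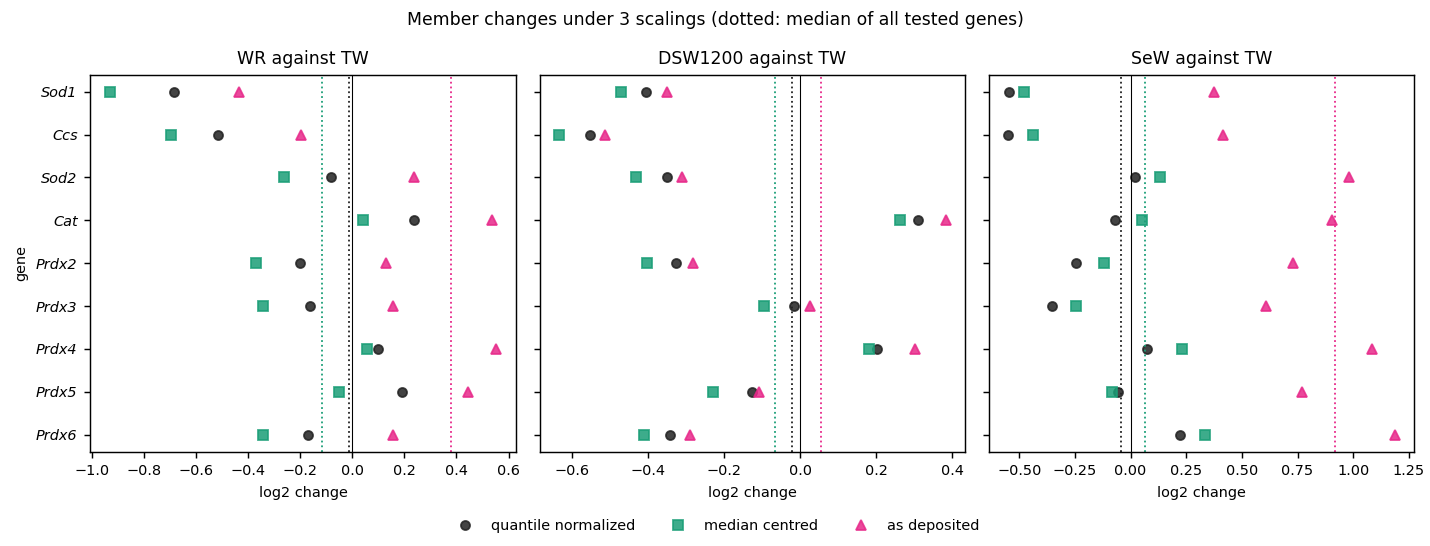
Log2 change (horizontal axes) of the 9 tested members in WR, DSW1200 and SeW, each against TW, after quantile normalization (circles), after median centring (squares) and as deposited (triangles), with dotted lines at the median of all tested genes in the same colour. In SeW against TW the deposited values move with their all-gene median of 0.92, and Sod1 and Ccs stay left of each line.

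The partners of these enzymes were followed as 6 lists of 81 genes, of which 70 had a probe set of their own, 57 were bright enough to test and 6 passed the threshold in a contrast or in the F test, as did 3.93% of all tested genes. Every call was in a comparison that involves SeW, where 1.91% of all genes were called against TW, 2.72% against DSW1200 and 1.23% against WR. The 57 genes gave no call in WR against TW (0.0108% of all genes), DSW1200 against TW (0%) or DSW1200 against WR (0%). They made 9 calls in single contrasts. Without SeW replicate 2 all 9 were lost, without SeW replicate 1 all but that of Txnip, without WR replicate 1 or WR replicate 2 there were 6 lost, without DSW1200 replicate 1 there were 5, without DSW1200 replicate 2 there were 6 and without TW replicate 2 there was 1, that of Sesn2. The beta-actin ratio was lower in SeW than in the other groups, at 13.6 and 10.9 against 20.6 to 32.8 on the other arrays. A fit with it as a covariate can therefore hardly tell SeW and RNA length apart. In that fit none of the 6 genes was called. The log2 changes themselves were then -1.43 for Gpx2, -1.87 for Mt1 and -1.21 for Sesn2 in SeW against TW, and 1.57 for Slc39a14, 1.98 for Slc39a8 and -0.19 for Txnip in SeW against DSW1200.

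**Figure D4:**
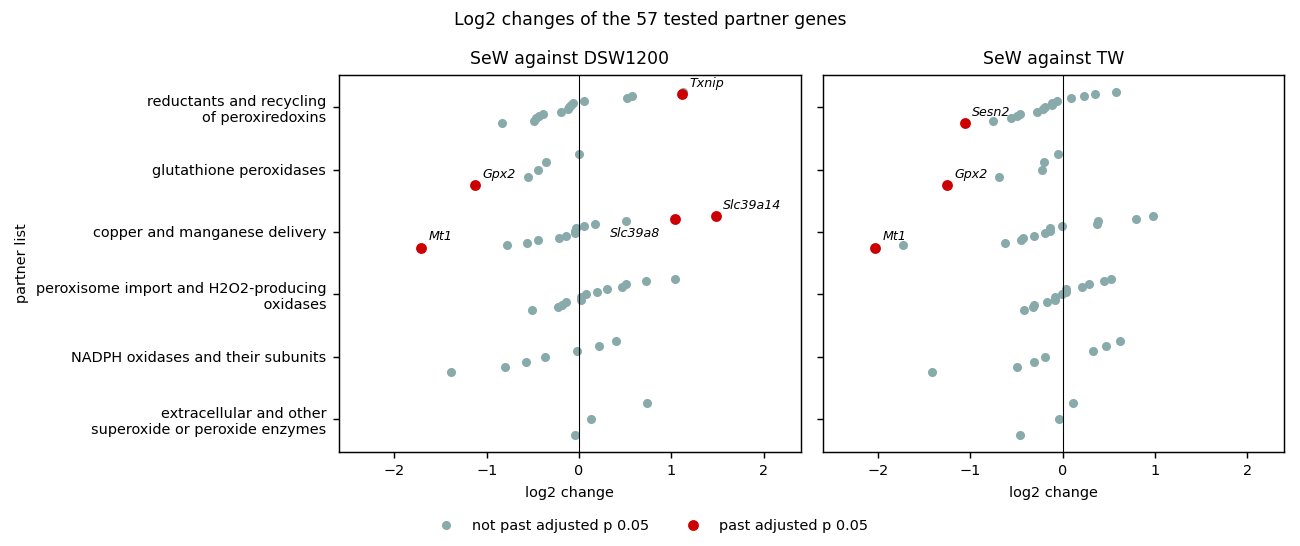
Log2 change (horizontal axes) of the 57 tested partner genes in SeW against DSW1200 and in SeW against TW, by list (vertical axis), with genes past an adjusted p of 0.05 in red. Gpx2 and Mt1 lie on the lower side in both panels, at -1.12 and -1.71 against DSW1200 and -1.25 and -2.03 against TW.

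The glutathione peroxidases, which remove hydrogen peroxide beside the members, had 5 tested genes of 6, and all 5 had the lower mean in SeW, against DSW1200, WR and TW alike, with 1 called each time. That gene was Gpx2, the selenium-dependent glutathione peroxidase of the gut epithelium. Gpx2 had 896 and 872 in SeW, 2102 and 1768 in DSW1200, 1737 and 1620 in WR, and 1755 and 2520 in TW. Gpx2 fell in SeW by 1.25 on the log2 scale against TW (limma adjusted p = 0.0163), by 1.12 against DSW1200 (limma adjusted p = 0.0198) and by 0.92 against WR (limma adjusted p = 0.0479), and it passed the F test (limma adjusted p = 0.0404). It did not pass in SeW against TW without SeW replicate 1 or without SeW replicate 2, and over the 8 leave-one-out fits that change ran from -1.49 to -0.98. As deposited it was -0.42 and not called. Gpx4, which reduces lipid peroxides in membranes, had 971 and 987 in SeW, 1289 and 1609 in DSW1200, 1220 and 1394 in WR, and 1357 and 1834 in TW, a log2 change of -0.69 in SeW against TW (limma adjusted p = 0.0786). Both SeW arrays were the lowest of the 8 for Gpx2 and for Gpx4, as for 13% of all tested genes. As deposited the Gpx4 change in SeW against TW was 0.18. The changes of Gpx3 against TW (-0.05) and of Gpx8 against DSW1200 (-0.01) were slight. The median log2 change of the list in SeW against TW was -0.22 (-0.04 over all tested genes).

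Reductants and recycling enzymes of the peroxiredoxins had 15 tested genes of 15, with 1 called lower in SeW against TW and 1 called higher in SeW against DSW1200. The median log2 change of this list in SeW against TW was -0.20 (-0.04 over all tested genes). Sesn2, a stress-induced sestrin, had 92.1 and 91.4 in SeW, 132 and 116 in DSW1200, 162 and 132 in WR, and 182 and 201 in TW, and fell by 1.06 on the log2 scale in SeW against TW (limma adjusted p = 0.0286). As deposited the Sesn2 change was -0.11 (limma adjusted p = 0.732), where the median of all tested genes was 0.92. Txnip, which binds thioredoxin and holds it inactive, had 470 and 789 in SeW, 261 and 302 in DSW1200, 641 and 645 in WR, and 488 and 472 in TW. Txnip rose by 1.12 on the log2 scale in SeW against DSW1200 (limma adjusted p = 0.0361), where the low group was DSW1200, and its change in SeW against TW was 0.34 (limma adjusted p = 0.430). The Txnip change ran from 0.74 to 1.49 over the 8 leave-one-out fits. It was 2.04 as deposited, where the median of all tested genes was 0.84, and 1.31 after median centring (limma adjusted p = 0.0807).

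Delivery of copper and manganese, the metals of Sod1 and Sod2, had 14 tested genes of 15, with 2 called higher and 1 lower in SeW against DSW1200 and 1 lower in SeW against TW. Mt1, a metallothionein that binds zinc and copper, had 31.3 and 43.4 in SeW, 149 and 97.5 in DSW1200, 97.7 and 69.9 in WR, and 190 and 119 in TW, and fell by 2.03 on the log2 scale in SeW against TW (limma adjusted p = 0.0166), and it fell by 1.71 in SeW against DSW1200 (limma adjusted p = 0.0296). As deposited the Mt1 changes were -1.06 (limma adjusted p = 0.0325) and -0.80 (limma adjusted p = 0.0942) in that order. Slc39a14, a transporter of zinc, iron and manganese, had 1014 and 1121 in SeW, 518 and 280 in DSW1200, 540 and 512 in WR, and 426 and 693 in TW, and rose by 1.48 in SeW against DSW1200 (limma adjusted p = 0.0348). Slc39a8, a related transporter of manganese and zinc, had 219 and 237 in SeW, 124 and 98.6 in DSW1200, 128 and 139 in WR, and 160 and 108 in TW, and rose by 1.04 in SeW against DSW1200 (limma adjusted p = 0.0425). For each of the last 2 genes both SeW arrays were the brightest of the 8, as for 10.6% of all tested genes. Against TW neither change passed (0.97 with limma adjusted p = 0.114 for Slc39a14 and 0.79 with limma adjusted p = 0.0933 for Slc39a8). As deposited the changes in SeW against DSW1200 were 2.36 for Slc39a14 and 1.97 for Slc39a8, where the median of all tested genes was 0.84. After median centring they were 1.63 (limma adjusted p = 0.0658) and 1.24 (limma adjusted p = 0.0461) in that order. With the mean of all probe sets of a gene neither was called. Over the leave-one-out fits they ran from 1.04 to 1.92 and from 0.88 to 1.21.

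The other 3 lists had no called gene. Peroxisome import factors and the oxidases that make hydrogen peroxide had 13 tested genes of 22, with a median log2 change of -0.01 in SeW against TW; Pex3 and Pex16, which build the peroxisomal membrane, had changes of 0.52 and -0.01. NADPH oxidases and their subunits had 7 tested of 16, with a median of -0.19. Cybb, the catalytic subunit of the phagocyte oxidase, had 26.3 and 30.7 in SeW, 42.3 and 58.3 in DSW1200, 58.1 and 55.3 in WR, and 47.8 and 25.9 in TW, and its partner subunit Cyba had 273 and 283 in SeW, 200 and 222 in DSW1200, 160 and 143 in WR, and 168 and 294 in TW. The log2 changes in SeW against WR were -0.997 for Cybb (limma adjusted p = 0.153) and 0.88 for Cyba (limma adjusted p = 0.123). Extracellular and other enzymes had 3 tested of 7; Nqo1, a quinone reductase, and Hmox1, the inducible haem oxygenase, both known as targets of the antioxidant response, had log2 changes in SeW against TW of -0.46 (SE 0.43) and 0.11 (SE 0.42).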

How the data were processed

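The data are 8 arrays, 2 each for WR, DSW1200, SeW and TW. The authors deposited 1 linear MAS5 signal intensity for each probe set and array, with the version and scaling target not given in the sources used here. The study's methods state quantile normalization, but the deposited arrays have different medians, so quantile normalization was done here, with a floor of 1 before the log2 step. Probe sets were named through Entrez number (20758), accession (2) or the platform symbol (66), while 436 with several symbols were left out, as were 57 controls. A gene with several probe sets was read from its brightest one by mean log2. R 4.3.3 and limma 3.58.1 fitted a single linear model to the 8 arrays, by group alone (4 residual degrees of freedom), empirical Bayes with an intensity trend, and Benjamini-Hochberg adjustment over 9258 genes, with 6 contrasts and an F test over the 3 contrasts with TW. The method was tested on simulated data.

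The members and gene lists were chosen with earlier results of these data known. All members are named, with list genes past the threshold in a contrast or the F test (where fewer than 2 pass, the 2 with the smallest F p) and the 3 genes most correlated with each of the 3 members of smallest F p. Alternatives covered scaling, the filter, the floor, the choice of probe set, the intensity trend, the replicate number, RNA length, the samples fitted, a 2-fold rule and leaving out each array. The fit that took every probe set as a row and kept those with several symbols was chosen after seeing the data. The number of arrays limits the precision. The labels give 12 h for WR, and the study's methods also mention a longer restriction beside array data.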

Additional observations from a re-analysis of the deposited data

How the results depend on the processing

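The 54 log2 changes of the members (9 genes in 6 comparisons) stayed under the threshold in every alternative except 2. With values as deposited, 7 members passed in SeW against TW (47.5% of all genes), 6 in SeW against DSW1200 (40.4%), 1 in SeW against WR (10.5%) and 5 in the F test (29.9%), and 24 of 54 changes had the other sign. Those that passed with the other sign were, in SeW against TW, Prdx2 (0.73), Prdx3 (0.61), Prdx5 (0.77), Cat (0.90) and the partner Pex16 (0.99), and, in SeW against DSW1200, Sod1 (0.73). By construction that setting keeps the brightness of the SeW arrays. Without TW replicate 1, Ccs passed in SeW against TW, so the number of members past the threshold there ran from 0 to 1 over the leave-one-out fits. The sign of an uncalled change differed for 9 of 54 after median centring, 24 of 54 with the beta-actin ratio as a covariate, 1 to 7 of 54 on leaving out 1 array, and 0 of 54 in the other alternatives, the 2-fold rule aside, which changes no value.

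The 6 partner genes past the threshold became 32 with values as deposited, 2 after median centring, 0 without the filter on dim genes, 3 with the mean of all probe sets of a gene, 0 without the intensity trend, 0 with the beta-actin ratio as a covariate, 13 by a 2-fold rule and 11 by a 2-fold rule without overlap. Over the leave-one-out fits the number ran from 0 (without SeW replicate 2) to 10 (without TW replicate 1), with 2 without WR replicate 1 or WR replicate 2, 3 without DSW1200 replicate 2 and 1 without SeW replicate 1. Txnip in SeW against DSW1200 was -0.19 with the beta-actin ratio as a covariate. These causes were not tested.

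With the replicate number as a block, 0 members and 4 partner genes passed. The deviations of same-numbered arrays from their group means correlated between -0.06 and 0.04. The labels name no pairing of these arrays, and a low correlation over all genes cannot show that there was none. With 2 arrays a group, leaving 1 out assumes that the lone array varies like those of the other groups.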
